A study of Mus musculus with 11 samples.

Results

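Described here are 10 genes of the Notch pathway in mouse mammary gland at parturition (L1): the receptor genes Notch1, Notch2, Notch3 and Notch4, the ligand genes Jag1, Jag2 and Dll1, the nuclear effector gene Rbpj, and the target genes Hes1 and Hey1. They were chosen by gene symbol from the pathway, with no threshold on their values, and make up 10 of the 14847 named genes in the deposited expression table. The study followed STAT5A binding, H3K4me3 and gene expression in mammary tissue of wild-type mice on the mixed background 129SV::FVB/N::C57BL/6. The group used here is L1 RNA-seq, 1 library from whole mammary tissue taken at parturition after the lymph nodes had been removed, with no treatment given in the labels. The labels give neither the age of the mice nor whether tissue of several animals was pooled. Expression on day 6 and day 13 of pregnancy was not analysed here.

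Notch receptors are single-pass membrane proteins that are activated by Jagged and Delta-like ligands on a neighbouring cell. After ligand binding, ADAM proteases and then gamma-secretase cut the receptor, and its intracellular domain enters the nucleus and joins the DNA-binding protein RBPJ. There it replaces co-repressors with co-activators and switches on genes of the Hes and Hey families, which encode transcriptional repressors. In the mouse mammary gland the pathway is best known for favouring luminal over basal cell fate, and Notch4 was first found as an insertion site of mouse mammary tumour virus.

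With 1 library there is no replicate check, so no p-value, standard deviation or pattern across samples can be given, and no gene can be named for a like pattern. The table gives FPKM, a fragment count scaled by transcript length and by the mapped fragments of the library, for each locus of a transcript assembly. It holds no counts, so the depth is unknown. The level of a gene is the FPKM of its highest locus unless the sum over its loci is named. Because FPKM is scaled by length, the values of loci that are pieces of 1 transcript do not add up to its level. A sum over such loci overstates the gene, the more so the more pieces there are.

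RBPJ binds DNA at the core TGGGAA, so the promoter windows of the genes were searched for it. RefSeq windows of the build GRCm38.p6, running from 250 bases before to 50 bases after a start site, were at hand for 8 of the 10 genes, with 10 windows in all. No window was at hand for the target genes Hes1 and Hey1, so they were not searched. Both strands of the 10 windows were searched. The core was found in both windows of Rbpj itself and in no window of Notch1, Notch2, Notch3, Notch4, Jag1, Jag2 or Dll1. Among all 32851 windows, 25.6% held it. The matches in Rbpj begin 149 and 65 bases before the first of its start sites, the nearer one on the opposite strand, and the windows of its start sites overlap, so that the nearer match is in both. The 250 bases before the first start site, at chr5:53590096-53590345 on the plus strand, are shown because RBPJ is the factor that reads this core. Capitals mark the 2 matches.
Rbpj: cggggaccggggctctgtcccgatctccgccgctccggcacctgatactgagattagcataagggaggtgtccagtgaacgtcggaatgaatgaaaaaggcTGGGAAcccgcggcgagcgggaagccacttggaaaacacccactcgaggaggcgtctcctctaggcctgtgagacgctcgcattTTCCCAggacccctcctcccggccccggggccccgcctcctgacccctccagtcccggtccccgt

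The same windows were searched for TTCNNNGAA, the palindromic element that STAT dimers bind, because STAT5A is the factor of the study. It was found in the window of Notch3, starting at base 3 after the start site, and in none of the other 9 windows. Among all 32851 windows, 8.3% held it. The 29 bases around the match, at chr17:32166870-32166898 on the minus strand, are shown with the element in capitals.
Notch3: acagcctcacTTCGGCGAAgttggcggcg

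Such matches describe letters in a window and not binding. The deposited STAT5A and H3K4me3 positions are in another build, mm9, and were not set against these genes. The windows were mostly rich in G and C: the 10 windows held between 55.7% and 86% G plus C, with a median of 65.8%. Over all windows the median was 52.7%, with quartiles of 45.7% and 61.7%. The windows of Jag1 and Notch4 and the lower one of Dll1 lay within these quartiles.

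All 10 genes were present in the gland at parturition. Every one reached 1 FPKM, as did 73.6% of all named genes. By highest locus 1 of the 10, Hes1, reached 5 FPKM, against 44.3% of all named genes. This count depended on how loci were combined. With loci summed, Notch3, Notch1, Rbpj and Hes1 reached 5 FPKM, which is 4 of the 10, against 46.7% of all named genes, and by the mean over loci 0 of the 10 did, against 39.4%. The median of the 10 was 3.34 FPKM, against 3.90 FPKM over all named genes. On the log2(FPKM + 1) scale these medians were 2.10 for the 10 genes and 2.29 for all named genes. By highest locus the levels lay between 1.34 FPKM in Hey1 and 8.09 FPKM in Hes1, a 6.05-fold range, so the highest and the lowest of the 10 on this scale were both targets of the pathway.

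**Figure D1:**
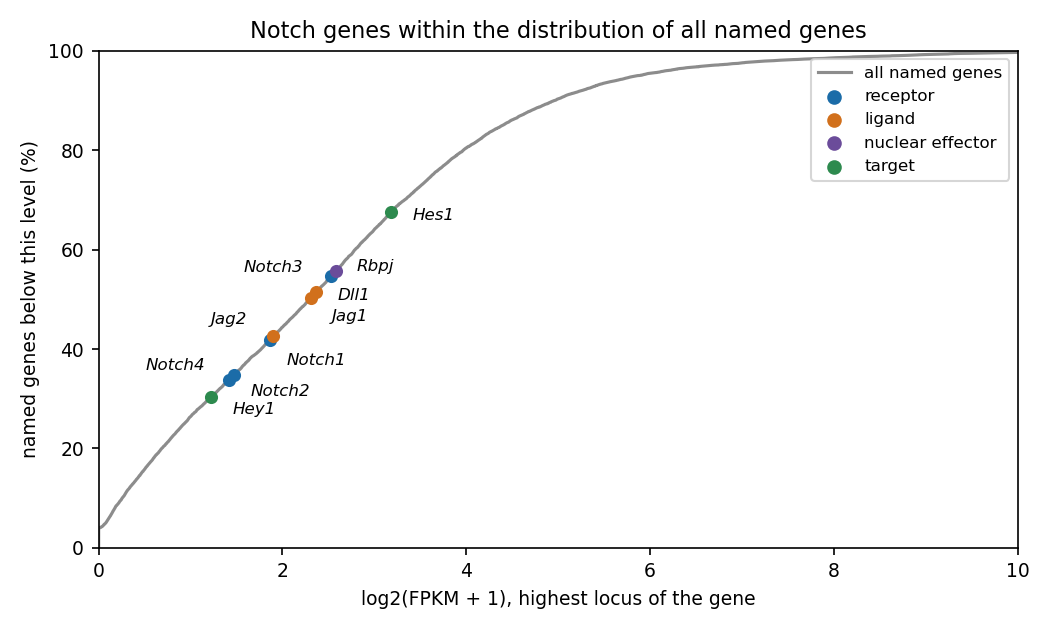
Share of the 14847 named genes below a given level (y axis, percent) against log2(FPKM + 1) of the highest locus (x axis), for 1 library at parturition; coloured points are the 10 Notch genes by role. The points run from Hey1, above 30.4% of named genes, to Hes1, above 67.6%.

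Among the receptors, Notch3 was the highest. Notch3, a receptor of vascular smooth muscle cells and pericytes that is also known from luminal progenitors, stood at 4.75 FPKM and above 54.7% of named genes. Notch1, the receptor with the broadest known role in cell fate, stood at 2.65 FPKM and above 41.9%. Notch2, its close relative, and Notch4, a receptor known mainly from endothelium, were nearly level at 1.77 and 1.67 FPKM, above 34.7% and 33.8% of named genes. Notch3 was thus 1.80 times Notch1, 2.68 times Notch2 and 2.85 times Notch4. No spread between animals was measured against which these ratios could be judged.

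The receptor genes Notch3 and Notch1 were split over more loci than most genes, and this bears on the order of the receptors. Of the 10 genes, 5 had several loci, against 25.8% of all named genes. Notch3 had 6 loci and Notch1 had 5, while 2.51% of all named genes had 5 or more. In Notch3 a pair of loci was nearly level, XLOC_011719 at 4.75 FPKM and XLOC_012286 at 4.57 FPKM. The other 4 loci of Notch3 stood at 1.21, 0.52, 0.47 and 0.36 FPKM. The highest locus therefore held only 40.0% of the summed FPKM of Notch3, against a median of 79.4% over 3785 named genes with several loci.

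Notch1 was spread in a similar way. Its loci XLOC_014626 and XLOC_015297 stood at 2.65 and 1.77 FPKM, and the other 3 at 0.39, 0.38 and 0.24 FPKM, so that the highest held 48.7% of the sum. Notch4 had 2 loci, at 1.67 and 0.40 FPKM, with 80.8% of the sum in the higher one, and Notch2 had a single locus. Summed over loci, Notch3 came to 11.9 FPKM and Notch1 to 5.43 FPKM, while Notch4 came to 2.06 FPKM and Notch2 stayed at 1.77 FPKM. Among named genes summed in the same way, Notch3 then lay above 74.0% and Notch1 above 55.4%. On this scale Notch3 made up 56.2% of the summed level of the 4 receptors, against 43.9% by highest locus, and Notch4 lay above Notch2. That share adds 6 loci for Notch3 but 1 for Notch2, and it overstates Notch3 if its loci are pieces of 1 transcript. Notch3 led the receptors by either summary, and also by the mean over loci, where it stood at 1.98 FPKM against 1.77 FPKM in Notch2, 1.09 FPKM in Notch1 and 1.03 FPKM in Notch4.

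**Figure D2:**
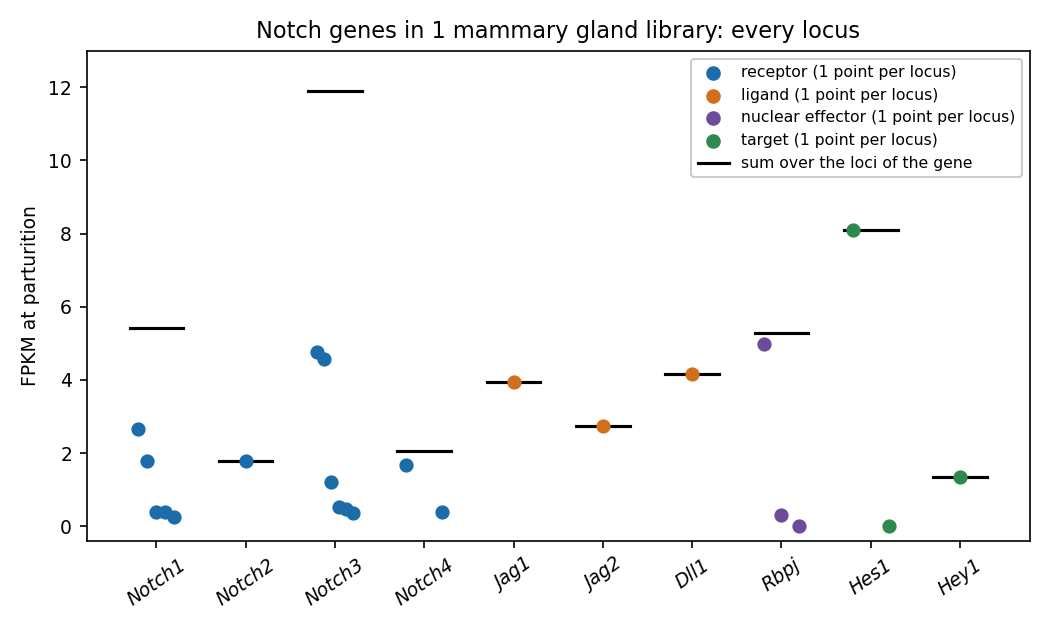
FPKM at parturition (y axis, linear) of every locus of the 10 Notch genes (x axis), 1 point per locus, with a black line at the sum over the loci of a gene. Notch3 and Notch1 are spread over 6 and 5 loci, while the 3 ligand genes and Hey1 have a single locus each.

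The table gives neither the length nor the strand of a locus. In GRCm38.p6 the span of Notch1 overlaps the long non-coding RNA gene 0610009E02Rik, that of Notch2 overlaps Gm40103, and that of Notch3 overlaps Gm38585 and Gm41568. None of these 4 RNA genes had a locus under its own symbol. Loci without a symbol numbered 8230, so whether these RNA genes were among them cannot be told. The labels name no strand-specific protocol, so reads of a receptor gene and of a gene overlapping it cannot be told apart. Whether the lesser loci are pieces of the receptor transcripts was not tested.

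The 3 ligand genes were closer to each other than the 4 receptors, with a range of 1.52-fold against 2.85-fold by highest locus. By the mean over loci the range of the receptors was 1.92-fold. With the further ligand gene Dll4, at 1.78 FPKM, the range of the ligands was 2.34-fold. Dll1, a Delta-like ligand known from mammary basal cells, stood at 4.16 FPKM and above 51.5% of named genes. Jag1, a Jagged ligand with wide expression in vessels and epithelia, was nearly level with it at 3.95 FPKM, above 50.3%, a ratio of 1.05 between them. Jag2, the other Jagged ligand, stood at 2.73 FPKM, above 42.5% of named genes, so that Dll1 was 1.52 times Jag2. Each of the 3 had a single locus, and no locus with several symbols named any of the 10 genes, so their levels did not depend on how loci were combined. The summed level of the 3 ligands was 10.8 FPKM, the same to this precision as that of the 4 receptors by highest locus. This match depends on the choice of ligands: with the further ligand gene Dll4 added, the ligands came to 12.6 FPKM. With the receptors summed over all their loci the receptors came to 21.2 FPKM.

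Rbpj stood at 4.97 FPKM, above 55.6% of named genes, next below Hes1 among the 10. It had 3 loci, but XLOC_020571 carried 94.2% of the summed FPKM, with the others at 0.31 FPKM and listed at 0. Rbpj was 1.05 times Notch3 by highest locus, whereas with loci summed it was 5.28 FPKM against 11.9 FPKM in Notch3.

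By highest locus the 2 targets stood at opposite ends. Hes1, a repressor of differentiation genes and the best known target of Notch in many tissues, had 8.09 FPKM in XLOC_010321, above 67.6% of named genes. Its other locus was listed at 0. Hey1, a related repressor known from the endothelium, had 1.34 FPKM in a single locus, above 30.4% of named genes. Hes1 was thus 6.05 times Hey1 by highest locus and also with loci summed, and 3.03 times Hey1 by the mean over loci, which the locus at 0 lowers. In GRCm38.p6 the span of Hey1 overlaps the protein-coding gene LOC115489673, and reads of these 2 genes cannot be told apart here. Hes1 is also driven by other pathways, and these data do not tell its inputs apart.

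From the highest level down, the order of the 10 genes was Hes1, Rbpj, Notch3, Dll1, Jag1, Jag2, Notch1, Notch2, Notch4 and Hey1. The steps between neighbours in this order were small, between 1.03-fold from Jag2 to Notch1 and 1.63-fold from Hes1 to Rbpj, and without replicates no neighbours can be said to differ. With loci summed, Notch3 came first at 11.9 FPKM, ahead of Hes1 at 8.09 FPKM, and Notch1 came next at 5.43 FPKM. By the mean over loci Dll1 came first at 4.16 FPKM, with Hes1 at 4.05 FPKM. Hey1 was the lowest by highest locus and by the sum, and Notch4 by the mean.

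Beside the 10 genes, 67 further genes of the pathway were listed by role, of which 57 had a locus of their own. Of these 57, 47 reached 1 FPKM (82.5%) and 25 reached 5 FPKM (43.9%), against 73.6% and 44.3% of all named genes. Their median was 4.27 FPKM, against 3.90 FPKM over all named genes.

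The remaining ligand genes with a locus of their own stood below the 2.73 FPKM of Jag2. Dll4, the Delta-like ligand of sprouting vessels, stood at 1.78 FPKM, so that Dll1 was 2.34 times as high. Dlk1 and Dlk2, which encode Delta-like proteins that lack the receptor-binding domain of canonical ligands, stood at 0.18 and 0.40 FPKM. Dll3 and Dner had no locus of their own.

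Of the enzymes that attach sugars to the receptors, 4 had a locus of their own and all 4 reached 1 FPKM. Poglut1, which adds O-glucose, stood at 6.92 FPKM, and Pofut1, which adds the O-fucose needed for signalling, at 1.95 FPKM. Of the fringe genes, whose products extend that fucose and shift the receptor's preference between ligands, Lfng stood at 4.27 FPKM and Mfng at 2.48 FPKM. Rfng shared a locus with another symbol and was left out, and Eogt had none.

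Most genes of the proteases that cut the receptor were higher than the receptor and ligand genes, Adam17 and Aph1c being the exceptions by highest locus. Furin, which cuts the receptor on its way to the surface, stood at 27.8 FPKM. Adam10 and Adam17, which encode ADAM proteases that can cut the receptor, stood at 18.0 and 2.80 FPKM. Of the gamma-secretase subunit genes, Ncstn (nicastrin) stood at 22.9 FPKM and Aph1a at 13.4 FPKM. Psenen stood at 9.27 FPKM and Psen2, a catalytic presenilin, at 7.49 FPKM. These 4 subunit genes were all above the 4.75 FPKM of Notch3, the highest receptor by highest locus. With loci summed, the 11.9 FPKM of Notch3 stood above Psenen and Psen2. Aph1c was listed at 0 and Aph1b shared a locus with another symbol. These enzymes also cut many other membrane proteins.

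The 5 E3 ligase genes of ligand endocytosis had their median at 1.23 FPKM, which was that of Mib1. The others named are Mib2 at 3.30 FPKM and Neurl3 at 1.26 FPKM. The 11 genes of receptor trafficking and turnover had their median at 4.87 FPKM. The highest was Itch, a ubiquitin ligase, at 12.0 FPKM, followed by Fbxw7, which marks the intracellular domain for degradation, at 7.29 FPKM and Dtx3l at 6.66 FPKM.

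In the nucleus, co-repressor genes had a higher median than genes of the activation complex. The 8 measured genes of the activation complex, Rbpj among them, had a median of 4.30 FPKM, with the histone acetyltransferase genes Kat2b at 12.1 FPKM and Kat2a at 8.87 FPKM on top, followed by Rbpj. The 14 co-repressor genes had a median of 5.60 FPKM and all reached 1 FPKM, led by Ctbp1 at 41.5 FPKM and the deacetylase genes Hdac2 at 24.3 FPKM and Hdac1 at 23.0 FPKM. Most of these cofactors serve many transcription factors.

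Of the 9 listed Hes and Hey genes, 6 had a locus of their own. Hes6, whose product is known to inhibit HES1, was the highest at 10.5 FPKM, 1.30 times Hes1. Hes7 stood at 1.05 FPKM, Heyl at 0.52 FPKM and Hey2 at 0.50 FPKM, all below Hey1 at 1.34 FPKM. Hes2, Hes3 and Hes5 had no locus of their own.

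**Figure D3:**
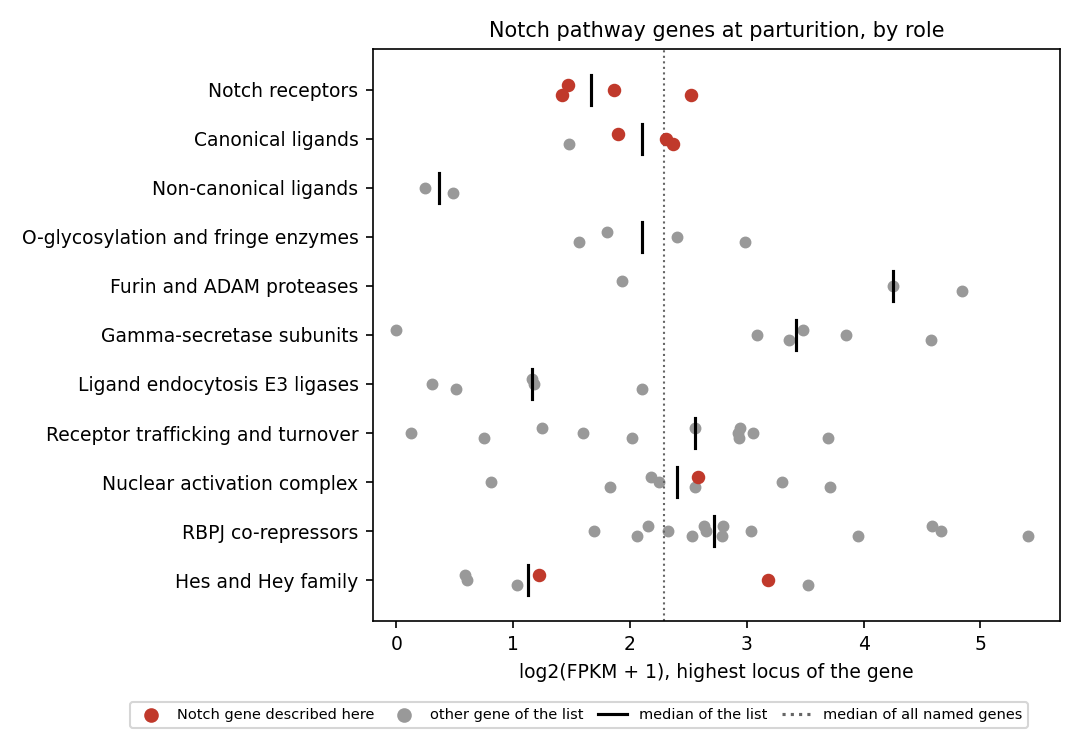
Level of each Notch pathway gene at parturition as log2(FPKM + 1) of its highest locus (x axis), by role (rows); red points are the 10 Notch genes, grey points the other genes, black lines list medians and the dotted line the median of all named genes. The median of the Furin and ADAM list, 18.0 FPKM, lies to the right of that of the receptors, 2.21 FPKM, although Adam17 at 2.80 FPKM lies among the receptors.

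The tissue is a mixture of cell types, and several of them are known to express Notch genes. In whole tissue, fewer cells of a type and less RNA per cell cannot be told apart. The luminal epithelium was well represented: all 12 markers reached 1 FPKM, with a median of 78.2 FPKM and values between 5.17 and 577 FPKM, the highest in Elf5. Of 10 basal and myoepithelial markers 8 had a locus, between 3.37 and 77.3 FPKM, with a median of 37.5 FPKM. The medians of both lists were above the 3.34 FPKM median of the Notch genes, although the lowest basal marker, at 3.37 FPKM, was level with it.

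Markers of vessel cells overlapped the Notch genes in level, but this was not particular to them. The macrophage markers, between 0.54 and 98.5 FPKM with a median of 2.49 FPKM, did so too. So did the hormone-sensing luminal markers, which reached up to 6.93 FPKM. Every other marker list, fibroblasts and adipocytes among them, also had a member between the lowest and the highest Notch gene. The 11 measured endothelial markers ran from 2.39 to 15.1 FPKM with a median of 4.99 FPKM, led by Pecam1 at 15.1 FPKM, Cdh5 at 14.3 FPKM and Egfl7, the gene next to Notch1 in GRCm38.p6, at 9.88 FPKM. The 8 pericyte markers ran from 0.59 to 21.2 FPKM with a median of 3.82 FPKM, led by Rgs5 at 21.2 FPKM. Which cells supplied the transcripts of Notch3, Notch4 or Hey1 was not tested.

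Fibroblast and adipocyte markers were also plentiful by their medians, 29.1 and 52.1 FPKM over 10 genes each. The fibroblast markers ran from 2.16 FPKM in Fbln1 to 132 FPKM in Sparc. The adipocyte markers ran from 2.14 FPKM in Plin4 to 723 FPKM in Fabp4. The 8 measured macrophage markers centred on a median of 2.49 FPKM and were highest in Cd14 at 98.5 FPKM. The median of 11 lymphocyte markers was 0.55 FPKM, and of these 3 reached 1 FPKM. That of 8 hormone-sensing luminal markers was 0.61 FPKM, and of these 3 reached 1 FPKM, and Areg was listed at 0.

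**Figure D4:**
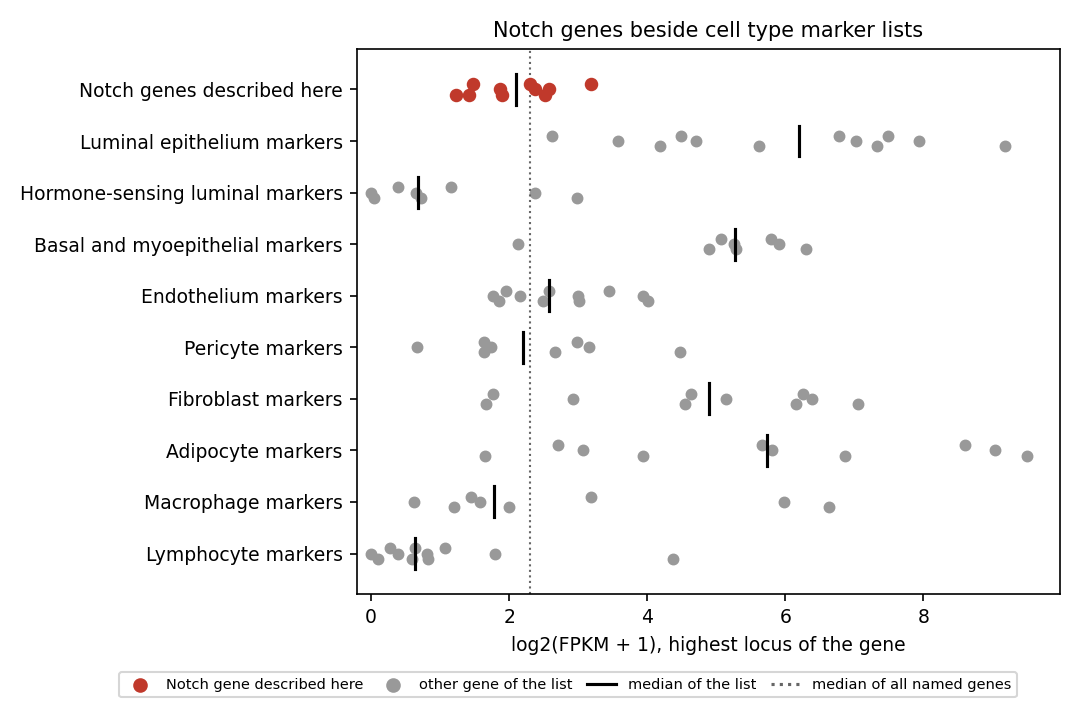
Level of the 10 Notch genes (top row, red) and of cell type marker genes (grey) at parturition as log2(FPKM + 1) of the highest locus (x axis), with black lines at medians and a dotted line at the median of all named genes. The Notch genes, between 1.34 and 8.09 FPKM, overlap the endothelial markers, between 2.39 and 15.1 FPKM, and lie mostly below the luminal markers, between 5.17 and 577 FPKM. They also overlap the macrophage markers, between 0.54 and 98.5 FPKM.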

How the data were processed

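RNA of whole mammary tissue at parturition was poly(A)-selected and made into a TruSeq library, per the labels' protocols, and CASAVA, TopHat and the mouse build mm9 are named in the submitters' processing notes. Which tool assembled the transcripts or computed their expression is not stated. The authors deposited FPKM for 30305 loci of 1 library: 21958 loci carried 1 symbol, 117 several and 8230 none. The table holds no counts, so depth is unknown and no interval could be given.

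The level of a gene was the FPKM of its highest locus, with no minimum. Loci with several symbols were left out. Share below is the percent of named genes with a lower level. Functions were checked on a small table with known answers (Python 3.11.15, pandas 2.3.3, numpy 2.4.6). Pathway and marker genes named are whole lists of ligands, receptors, sugar enzymes, gamma-secretase and Hes and Hey genes, and up to 3 of the highest in other lists, apart from a few genes not reported here; lowest members of marker lists and neighbours or overlapping genes were named after their values were seen. The 10 genes, the lists and the alternatives were chosen with earlier results of these data known. Alternatives were the sum and the mean over loci, counting loci with several symbols, a minimum of 0.1 FPKM, other pseudocounts, and, chosen after seeing the data, a background of protein-coding genes. Symbols were matched to GRCm38.p6 for 10 of 10 genes. A comparison between stages and the placing of ChIP-seq peaks at these genes were planned only if the files allowed them, and were left out.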

Additional observations from a re-analysis of the deposited data

How the results depend on the processing

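How the loci of a gene were combined moved the levels most. The median log2(FPKM + 1) of the 10 genes was 2.10 by highest locus, 2.34 with the sum over loci and 1.52 with the mean, against 2.29, 2.41 and 2.04 for all named genes. The number of genes at 5 FPKM was 1 by highest locus, 4 with the sum and 0 with the mean, against 44.3%, 46.7% and 39.4% of all named genes, and the range between the highest and the lowest gene was 6.05-fold, 8.89-fold and 4.04-fold. With a pseudocount of 0.1 or 0.01 the median was 1.76 or 1.72 on its own log2 scale. All 10 genes reached 1 FPKM under each of these ways of combining loci, when loci with several symbols were counted and with a minimum of 0.1 FPKM. The count of further pathway genes at 1 FPKM was 47 by highest locus and with the minimum, 48 with the sum or with loci of several symbols, and 46 with the mean. Against protein-coding genes alone, whose median was 2.37 on the log2(FPKM + 1) scale, the 10 genes lay above 29.1% to 66.4% of the background. No paired analysis was possible because there was 1 library. Without counts, the precision of levels near 1 FPKM cannot be given.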
